A study of Homo sapiens with 2 samples.

Results

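This account covers the caspases, the BCL2 family, the inhibitor of apoptosis proteins and the death receptors in KYSE-170, a cell line from a human squamous carcinoma of the oesophagus. The members were chosen by gene name: symbols that begin with CASP and a digit, BCL2, BIRC or TNFRSF10, together with MCL1, BAX, BAK1, BAD, BID, BIK, BBC3, PMAIP1, BMF, HRK, FAS, FADD, CFLAR, TRADD, DIABLO, CYCS, APAF1, XIAP, AIFM1 and ENDOG. The rule found 46 genes, carried by 54 probes, among 12445 genes named on the array. Of these, 30 genes passed the filter on level and 16 did not. BMF, FAS and CYCS were not analysed here.

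One culture of KYSE-170 cells was transfected with an oligoribonucleotide for miR-210, and another with one called ncRNA in the labels. The lipid reagent was Hiperfect in both, and both were grown in a Ham's F-12/RPMI medium with fetal bovine serum. Neither the transfection time nor the sequence of either oligoribonucleotide is given in the sources used here. Each transfection was measured on 1 Toray 25k array of 1 colour, so each value was measured once, no difference has a replicate check and no p-value was computed. Fewer transcripts per cell and fewer cells that carry a transcript cannot be told apart.

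Apoptosis runs along 2 routes that meet at the caspases, a family of cysteine proteases. In the extrinsic route, a ligand binds a death receptor such as FAS or a TRAIL receptor, the adaptor FADD is recruited, and the initiator caspases CASP8 and CASP10 are activated. In the intrinsic route, BH3-only proteins free or activate BAX and BAK1, the mitochondrial outer membrane becomes permeable, and released cytochrome c assembles with APAF1 and CASP9. Anti-apoptotic relatives such as BCL2, BCL2L1 and MCL1 hold BAX and BAK1 in check, and inhibitor of apoptosis proteins restrain caspases until DIABLO, released from mitochondria, binds them.

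MiR-210 is a microRNA induced by hypoxia. Its mature arms are shown because the transfected oligoribonucleotide acts through the seed, the bases that pair with a target. The sequences are those of RefSeq on GRCh38.p14, minus strand, with the seed (bases 2 to 8) in capitals. The 3p arm lies at chr11:568112-568133 and the 5p arm at chr11:568150-568171. The seeds of the arms differ, and the labels do not say which arm was transfected. Seed matches in the members' transcripts were not analysed here.
hsa-miR-210-3p: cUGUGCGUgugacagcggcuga
hsa-miR-210-5p: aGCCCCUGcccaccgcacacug

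The arrays had median intensities of 36 with miR-210 and 39 with ncRNA over 24267 probes. FGFRL1, a reported miR-210 target used here only as a check of the transfection, read 21 with miR-210 and 277 with ncRNA. Of the squamous markers KRT5, KRT14, KRT17, SFN, DSG3, PKP1 and TP63, all but TP63 passed the filter on level. Of the 6 that passed, 5 had log2 ratios above 0, with KRT5, KRT17 and PKP1 at least 1.5-fold higher with miR-210, and SFN, at 7094 with miR-210 and 12693 with ncRNA, was below 0. The summed intensity of all 7 was 10877 with miR-210 and 15059 with ncRNA, and without SFN, which decides that direction, 3783 with miR-210 and 2366 with ncRNA. TP63, which marks the basal squamous lineage, read 22 with miR-210 and 57 with ncRNA. The part of these marker differences in the results below was not tested. Of 6 fibroblast markers 2 passed the filter, with a summed intensity of 318 with miR-210 and 329 with ncRNA over the list, and of 4 endothelial markers 2 passed, with a sum of 174 with miR-210 and 223 with ncRNA.

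Differences are log2 ratios, miR-210 over ncRNA, computed once quantile normalization had given both arrays the same distribution, and folds are taken from them. Intensities are printed as deposited. Levels of different probes are not read as relative amounts of transcript, since probes differ in how brightly they report. They were compared for the filter, for the choice of a gene's probe and for the tertiles of level. The only measured error is the spread between probes of the same gene: over 251 genes with several probes kept, the brightest probes of a gene scattered about their shared value with a SD of 0.43 on the log2 scale. This SD between probes leaves out differences between cultures and arrays. It is not far below the SD of the log2 ratios of all genes kept, 0.535. The 2 probes of such a gene were only weakly correlated, with a Spearman rho of 0.29. Every member reported below as at least 1.5-fold apart has a single probe, so no second probe checks its ratio.

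Of the kept members, 6 were lower with miR-210 by 1.5-fold or more and 1 was higher by as much. At least 1.5-fold lower were CASP1, DIABLO, BIRC5, BID, MCL1 and BCL2L2, and at least 1.5-fold higher was BBC3. Each of these genes was read by 1 probe. The 6 lower genes are 20.0% of the 30 kept members, beside 10.9% of all 6681 genes kept. The 1 higher gene is 3.33% of the members, beside 11.9% of all genes kept. On the deposited scale both member counts were the same, beside 15.5% of all genes lower and 7.94% higher. At 2-fold or more, CASP1 was the only member, 3.33% of the members beside 6.2% of all genes. That comparison turned with the scaling: DIABLO and BIRC5 also reached 2-fold on the deposited scale and after dividing each array by its median, which made 3 of 30 members, beside 6.85% and 6.31% of all genes under those scalings. The member median was 0.00 on the log2 scale (15 above 0 and 15 below), and the median of all genes kept was 0.01. With no replicate, these shares describe 2 arrays.

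**Figure D1:**
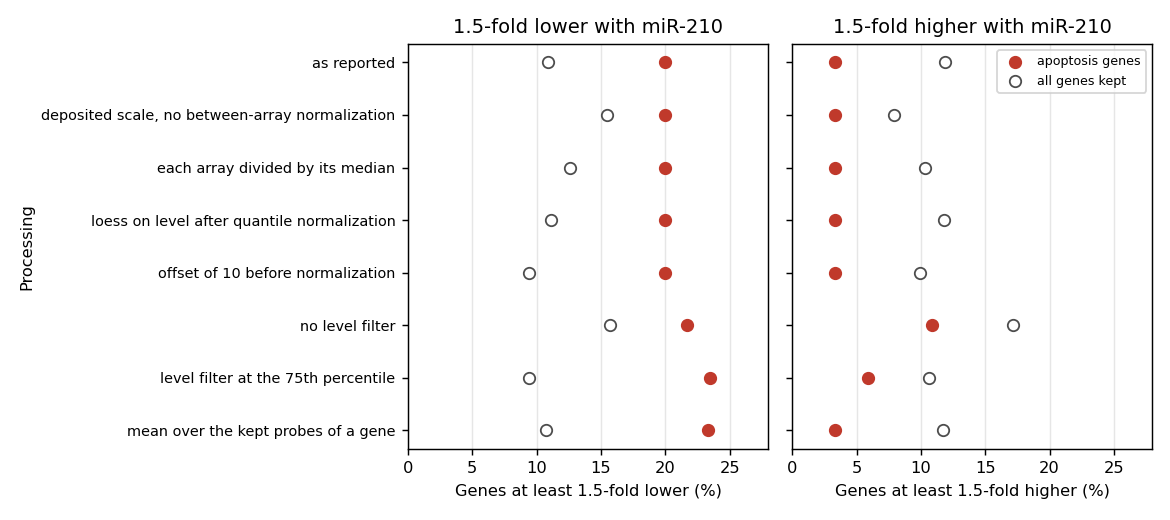
Share (%) of genes at least 1.5-fold lower (left) and at least 1.5-fold higher (right) with miR-210, filled for the apoptosis genes and open for all genes kept, under the reported processing and 7 alternatives. The lower share of the apoptosis genes lies between 20.0% and 23.5%, beside 9.37% to 15.7% of all genes kept. Their higher share lies between 3.33% and 10.9%, beside 7.94% to 17.2% of all genes kept.

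**Figure D2:**
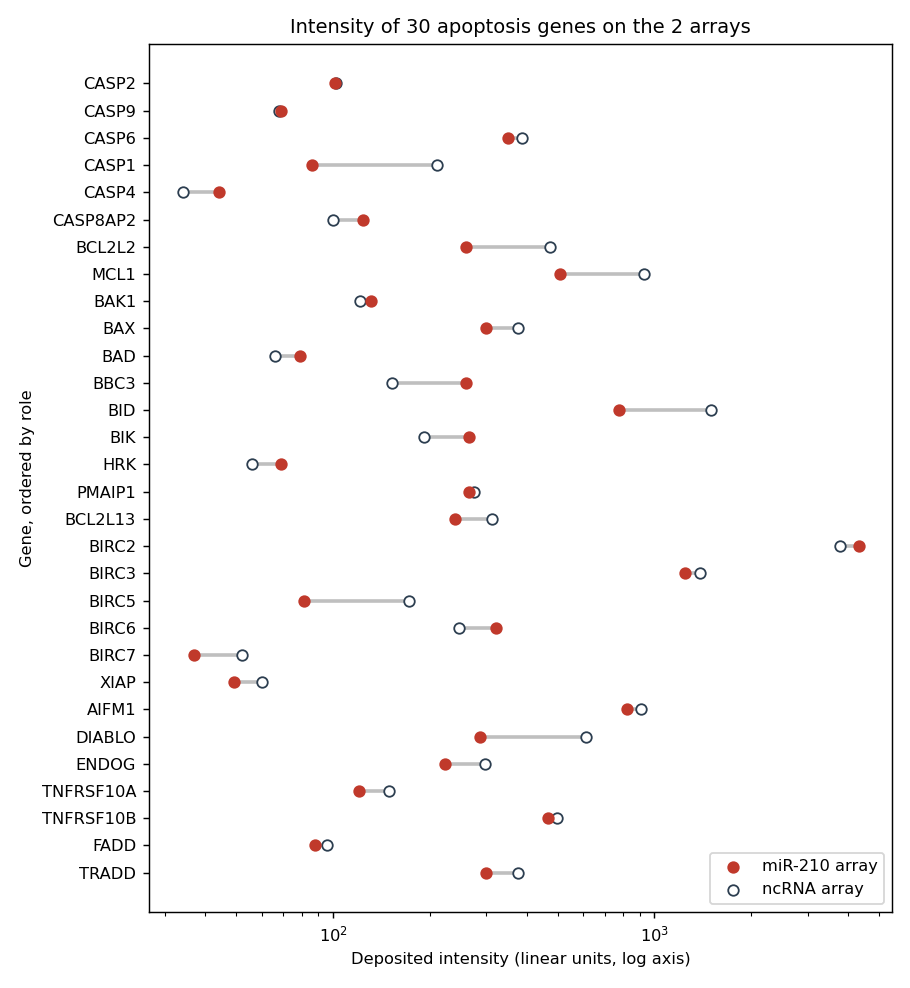
Deposited intensity (log axis) of the 30 apoptosis genes kept, ordered by role, with filled points for the miR-210 array and open points for the ncRNA array. Each line joins the 2 readings of 1 probe; the longest belong to CASP1, DIABLO and BIRC5, which read 86, 286 and 81 with miR-210 and 210, 611 and 172 with ncRNA.

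The level filter shapes these counts, because 16 members lay under it. Without it, all 46 genes could be counted: 10 were at least 1.5-fold lower (21.7%, beside 15.7% of 12405 genes) and 5 at least 1.5-fold higher (10.9%, beside 17.2%). The members added in this way read between 2 and 37 on both arrays, where a few units make a large ratio.

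Among the initiator caspases, which start the cascade, CASP9 and CASP2 were almost level between the arrays. CASP9, the initiator of the apoptosome, read 69 with miR-210 and 68 with ncRNA, a log2 ratio of 0.13. CASP2, activated on the PIDDosome platform, read 101 with miR-210 and 102 with ncRNA at the probe kept, a log2 ratio of 0.10. Its other probe lay under the filter, at 20 with miR-210 and 12 with ncRNA. The initiators of the extrinsic route were dim: CASP8 read 37 with miR-210 and 27 with ncRNA, and CASP10 read 19 on both arrays. The executioner caspase CASP6, known to cleave lamins, read 349 with miR-210 and 387 with ncRNA, a log2 ratio of -0.03.

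CASP1, the protease that matures interleukin 1 beta and drives pyroptosis, had the lowest log2 ratio of the kept members. It read 86 with miR-210 and 210 with ncRNA, a log2 ratio of -1.17, or 2.25-fold lower. That ratio ranked 141 from the lowest among 6681 genes and stayed between -1.29 and -1.09 under the 6 alternatives that kept the gene. CASP1 had a single probe, so of these alternatives the absence of a filter and the mean over probes could not change its ratio. Whether that probe also binds transcripts of CARD16, a gene that closely resembles the start of CASP1, was not tested. CASP1 is abundant in leukocytes, and of 4 leukocyte markers on the array, 1 (CD79A) passed the filter. The summed intensity of these markers was 176 with miR-210 and 174 with ncRNA, most of it from CD79A at 126 with miR-210 and 133 with ncRNA. The pan-leukocyte gene PTPRC read 10 with miR-210 and 9 with ncRNA. Both samples are cultures of 1 cell line, and any bearing of these markers on the CASP1 ratio was not tested.

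Of the other inflammatory caspases, CASP4 passed the filter and CASP5 did not. CASP4, the human sensor of intracellular lipopolysaccharide, read 44 with miR-210 and 34 with ncRNA, a log2 ratio of 0.47. CASP5, its close relative, read 6 with miR-210 and 16 with ncRNA, on the same side as CASP1 but too dim for its ratio to be relied on. In the RefSeq order of protein-coding genes, CASP4, CASP5 and CASP1 follow each other on chromosome 11, and the kept genes of this run, CASP4 and CASP1, had ratios of opposite sign. CASP14, a caspase of the cornifying epidermis, was dim at 10 with miR-210 and 15 with ncRNA. PYCARD, the adaptor that joins sensors to CASP1 in the inflammasome and no member by the rule, read 31 with miR-210 and 62 with ncRNA, or 1.86-fold lower.

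CASP8AP2, also called FLASH, a protein of histone transcript processing first described as a partner of CASP8 and a reported miR-210 target, read 124 with miR-210 and 100 with ncRNA. Its log2 ratio of 0.42 was on the higher side and within the spread between probes.

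Both anti-apoptotic BCL2 genes that passed the filter were lower with miR-210. MCL1, a short-lived guard of BAK1, read 508 with miR-210 and 930 with ncRNA, a log2 ratio of -0.75 or 1.68-fold lower. BCL2L2, which encodes BCL-W, read 259 with miR-210 and 473 with ncRNA, also a log2 ratio of -0.75 and 1.68-fold lower. Each was 1 probe. Their ratios ranked 451 and 453 from the lowest, and under the alternative scalings and the offset they lay between -0.87 and -0.72. The filter settings and the mean over probes cannot change the ratio of a gene with 1 probe.

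The other 4 anti-apoptotic genes on the array were too dim for a ratio. BCL2L1, which encodes BCL-XL, read 33 with miR-210 and 19 with ncRNA. BCL2A1 read 19 with miR-210 and 10 with ncRNA, and BCL2L10 read 2 with miR-210 and 18 with ncRNA. BCL2 itself had 2 probes that disagreed, one at 21 with miR-210 and 10 with ncRNA and the other at 11 with miR-210 and 20 with ncRNA. At this level the arrays give no direction for BCL2.

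The pore-forming effectors lay near 0 by their brightest probes. BAK1 read 131 with miR-210 and 121 with ncRNA, a log2 ratio of 0.21. BAX read 300 with miR-210 and 377 with ncRNA at its brightest probe, a log2 ratio of -0.21. A further BAX probe that passed the filter read 94 with miR-210 and 67 with ncRNA, a log2 ratio of 0.60, so the sign for BAX depends on the probe.

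The BH3-only genes, which sense stress and trigger BAX and BAK1, held both the highest member and one of the lowest. BBC3, which encodes the p53 target PUMA, read 260 with miR-210 and 152 with ncRNA, a log2 ratio of 0.89 or 1.86-fold higher. It ranked 291 from the highest. BIK, a BH3-only protein of the endoplasmic reticulum, read 264 with miR-210 and 192 with ncRNA, and its log2 ratio of 0.58 lay just under the 1.5-fold limit. HRK and BAD were on the same side, with ratios of 0.41 and 0.37, both within the spread between probes. HRK read 69 with miR-210 and 56 with ncRNA, and BAD read 79 with miR-210 and 66 with ncRNA. PMAIP1, which encodes NOXA, the BH3-only partner of MCL1, read 264 with miR-210 and 275 with ncRNA, a ratio of 0.06.

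BID, the BH3-only protein that CASP8 cleaves to link the extrinsic to the intrinsic route, went the other way. It read 777 with miR-210 and 1500 with ncRNA, a log2 ratio of -0.80 or 1.74-fold lower, and ranked 400 from the lowest. Of the 6 BH3-only genes kept, 5 were above 0 and BID was below, beside 50.8% of all genes kept above 0. Of those 5, HRK, BAD and PMAIP1 lay within the spread between probes, which 18.1% of all genes kept exceeded above 0 and 16.8% below 0. On the deposited scale PMAIP1 joined BID below 0, at -0.06. BCL2L11, which encodes BIM, was under the filter at 14 with miR-210 and 9 with ncRNA.

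BCL2L13, a BCL2-like protein of the outer mitochondrial membrane with a role in mitophagy, had 4 probes. The probe with the highest level read 239 with miR-210 and 312 with ncRNA, a log2 ratio of -0.27. A probe almost as bright read 175 with miR-210 and 397 with ncRNA, a log2 ratio of -1.06, or 2.09-fold lower. The 2 dim probes read 20 and 14 with miR-210 and 34 and 15 with ncRNA. All 4 ratios were below 0, and their sizes disagreed by more than the spread between probes: the mean of the kept probes, -0.66, would add BCL2L13 to the genes at least 1.5-fold lower. BCL2L13 lies beside BID on chromosome 22 with no protein-coding gene between them in RefSeq. BCL2L12 and BCL2L14 were dim, with readings between 13 and 23.

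**Figure D3:**
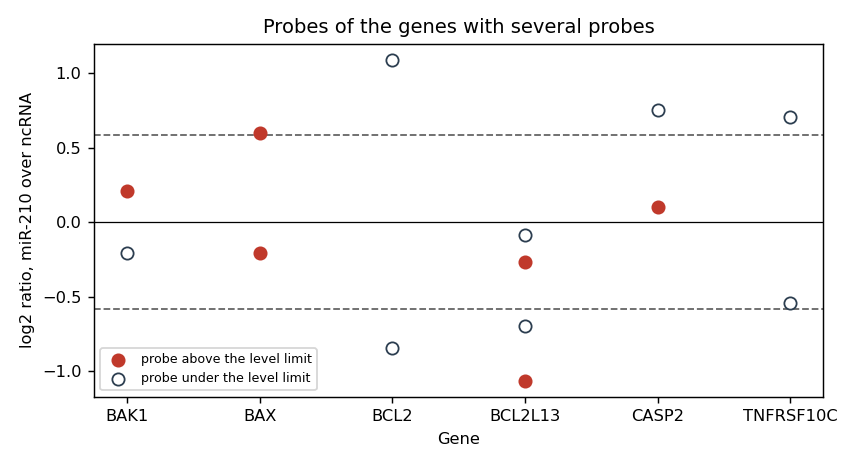
The log2 ratio (miR-210 over ncRNA) of every probe of the 6 genes with several probes, filled where the probe passed the level filter and open where it did not; dashed lines mark 1.5-fold. The probes of BAX, BAK1, BCL2 and TNFRSF10C fall on both sides of 0, and all 4 probes of BCL2L13 lie below it.

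Among the inhibitors of apoptosis, BIRC5 stood apart in size. BIRC5, which encodes survivin, a subunit of the chromosomal passenger complex made in dividing cells, read 81 with miR-210 and 172 with ncRNA. Its log2 ratio was -0.97, or 1.96-fold lower, and ranked 233 from the lowest. BIRC6, a giant ubiquitin-conjugating member, read 322 with miR-210 and 247 with ncRNA, a ratio of 0.50. BIRC2, the ubiquitin ligase cIAP1, read 4326 with miR-210 and 3783 with ncRNA, a ratio of 0.40.

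BIRC3, the ligase cIAP2 and an NF-kB target, read 1250 with miR-210 and 1386 with ncRNA, a ratio of 0.03. BIRC3 and BIRC2 are adjacent on chromosome 11, and their ratios differed by less than the spread between probes. XIAP, a direct inhibitor of CASP9 and other caspases, read 49 with miR-210 and 60 with ncRNA, a ratio of -0.19. BIRC7, known from melanoma, read 37 with miR-210 and 52 with ncRNA, a ratio of -0.39. BIRC8 was dim at 6 with miR-210 and 11 with ncRNA. Of the 6 kept inhibitors, 3 were above 0 and 3 below.

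Of the proteins that leave the mitochondrion, DIABLO was at least 1.5-fold lower and the others kept, ENDOG and AIFM1, were within the spread between probes. DIABLO, also called SMAC, the antagonist of XIAP, BIRC2 and BIRC3, read 286 with miR-210 and 611 with ncRNA. Its log2 ratio was -0.98, or 1.97-fold lower, and ranked 227 from the lowest. ENDOG, a mitochondrial nuclease, read 223 with miR-210 and 297 with ncRNA, a ratio of -0.29. AIFM1, a flavoprotein needed for respiratory chain assembly that can move to the nucleus in cell death, read 823 with miR-210 and 907 with ncRNA, a ratio of 0.01. APAF1, the scaffold of the apoptosome, was listed at 9 on both arrays.

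The death receptors and their adaptors differed little. TNFRSF10B, the TRAIL receptor DR5, read 468 with miR-210 and 497 with ncRNA, a log2 ratio of 0.01. TNFRSF10A, the TRAIL receptor DR4, read 120 with miR-210 and 149 with ncRNA, a ratio of -0.20. FADD read 88 with miR-210 and 96 with ncRNA, a ratio of -0.01, and TRADD, the adaptor of TNF receptor 1, read 299 with miR-210 and 377 with ncRNA, a ratio of -0.21. None of these 4 ratios exceeded the spread between probes. Most genes kept did not either: 18.1% lay above 0 and 16.8% below 0 by more than it.

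The decoy receptors of TRAIL were dim. The probes of TNFRSF10C read 31 and 16 with miR-210 and 20 and 24 with ncRNA, with opposite signs, and TNFRSF10D read 10 with miR-210 and 15 with ncRNA. CFLAR, which encodes the CASP8 inhibitor c-FLIP, read 35 with miR-210 and 26 with ncRNA, just under the filter. CFLAR, CASP10 and CASP8 follow each other on chromosome 2, and none of them passed the filter.

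**Figure D4:**
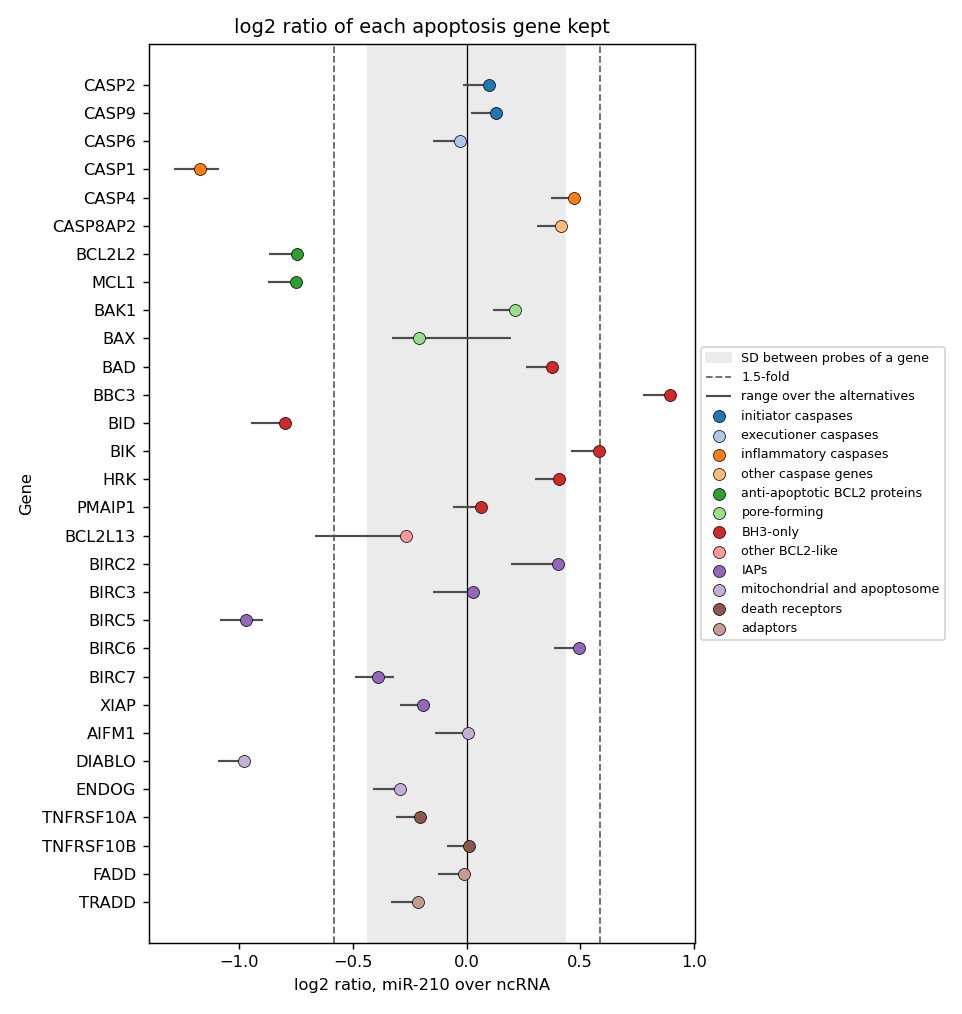
The log2 ratio (miR-210 over ncRNA) of the 30 genes kept, coloured by role, with horizontal lines for the range over up to 7 alternative processings, a grey band for the SD between probes of a gene (0.43) and dashed lines at 1.5-fold. CASP1, DIABLO, BIRC5, BID, MCL1 and BCL2L2 lie left of the dashed line under every alternative that kept them, and BBC3 lies right of it.

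None of the 6 lower members lay in the lower tertile of mean level. Of these, 4 (BCL2L2, BID, DIABLO and MCL1) lay in the upper tertile of mean level, which held 11 members, and 2 (BIRC5 and CASP1) in the middle tertile, which held 12. In the upper tertile 8.94% of all genes were at least 1.5-fold lower, in the middle tertile 11.1% and in the lower tertile 12.5%. None of the 7 members of the lower tertile reached 1.5-fold in either direction, beside the 12.5% of genes lower and 14.1% higher there. CASP1 and BIRC5 read between 81 and 210, and some markers of other cell types also did. DCN read 181 with miR-210 and 183 with ncRNA, VWF 103 and 126, and CD79A 126 and 133. Of 6 fibroblast, 4 endothelial and 4 leukocyte markers on the array, 2, 2 and 1 passed the filter. Whether readings at this level are specific to their gene was not tested.

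**Figure D5:**
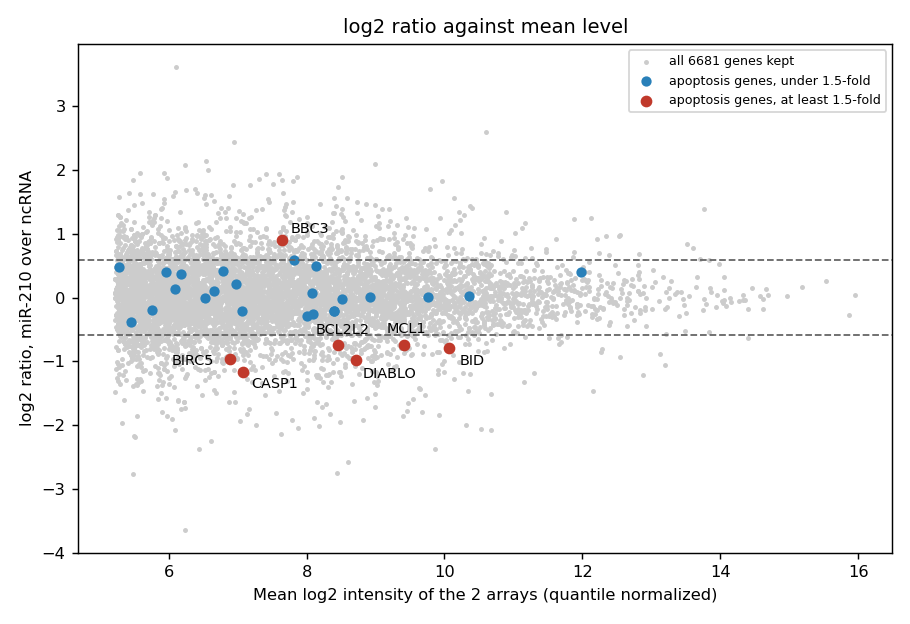
The log2 ratio (miR-210 over ncRNA) against the mean log2 intensity of both arrays after quantile normalization, with grey points for all 6681 genes kept and coloured points for the 30 apoptosis genes; dashed lines mark 1.5-fold. The 6 lower apoptosis genes spread from the middle to the upper part of the level range, inside the cloud of other genes.

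Other genes of the pathway fell on both sides of 0. A list of 45 genes outside the rule (TRAIL and TNF ligands and receptors, BNIP and BAG proteins, nucleases, death-domain adaptors) had 39 named on the array and 30 above the filter. Of these 30, 18 lay above 0 and 12 below, beside 50.8% of all genes kept above 0. Their median log2 ratio was 0.15. At least 1.5-fold higher were 4 of these (13.3%, beside 11.9% of all genes), and at least 1.5-fold lower were 3 of the 30 (beside 10.9% of all genes). CRADD, the adaptor that brings CASP2 to the PIDDosome, was 2.6-fold higher, at 66 with miR-210 and 27 with ncRNA. BNIP1, a SNARE protein with a BH3 domain, read 129 with miR-210 and 78 with ncRNA. BAG4, an inhibitor of TNF receptor 1 signalling, read 78 with miR-210 and 52 with ncRNA, and TRAF2, a ligase of that receptor's complex, read 64 with miR-210 and 45 with ncRNA. Besides PYCARD, the lower genes were BFAR, at 74 with miR-210 and 129 with ncRNA, and TMBIM6, also called BAX inhibitor 1, at 982 with miR-210 and 1649 with ncRNA.

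Of the 7 members at least 1.5-fold apart, DIABLO, BID and BBC3 had a promoter in the RefSeq table used, and the 150 bases before each start are shown so that the sequence upstream can be read beside the ratio. All are on GRCh38.p14, minus strand, at chr12:122226569-122226718 for DIABLO, chr22:17774470-17774619 for BID and chr19:47232668-47232817 for BBC3. Capitals mark matches, on either strand, to the motifs named after the sequences.
DIABLO: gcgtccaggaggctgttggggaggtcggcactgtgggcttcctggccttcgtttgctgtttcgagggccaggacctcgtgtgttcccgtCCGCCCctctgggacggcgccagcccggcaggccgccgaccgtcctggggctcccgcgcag
BID: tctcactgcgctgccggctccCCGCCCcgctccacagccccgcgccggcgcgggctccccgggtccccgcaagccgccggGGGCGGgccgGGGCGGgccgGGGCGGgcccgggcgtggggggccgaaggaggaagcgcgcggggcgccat
BBC3: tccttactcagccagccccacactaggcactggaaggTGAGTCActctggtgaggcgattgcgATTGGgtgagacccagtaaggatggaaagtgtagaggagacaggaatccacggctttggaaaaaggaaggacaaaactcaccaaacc

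The motifs searched were the GC box (GGGCGG), the CCAAT box (CCAAT), the AP-1 site (TGANTCA), the E-box (CACGTG), the TATA box (TATAAA) and the cell cycle homology region (TTTGAA). DIABLO held 1 GC box, starting 61 bases before the start that the table gives. BID held 4 GC boxes, starting 129, 70, 60 and 50 bases before it. BBC3 held an AP-1 site, starting at 113 bases before, and a CCAAT box at 87. No match overlapped another in these windows.

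Of the 30 kept members, 22 had such a window. The GC box was in 12 of them (54.5%, beside 36.7% of 27305 promoters), the CCAAT box in 8 (36.4%, beside 24.4%), the E-box in 2, BAX and BIRC7 (9.09%, beside 4.68%), and the AP-1 site in BBC3 alone (4.55%, beside 4.14%). The TATA box and the cell cycle homology region were in none of the 22, beside 7.05% and 7.44% of all promoters. These are descriptions of letters in a window.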

How the data were processed

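Total RNA of 2 KYSE-170 cultures was measured on 1-colour Toray arrays, per the labels' protocols from 500 ng of RNA labelled with Cy5. The authors deposited intensity values on a linear scale, whole numbers from -8 to 65496. Scanner, background correction and any normalization go unnamed in the labels, and values under 0 show that a background was subtracted.

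Groups came from the sample titles. The 24177 probes above 0 on both arrays were taken to log2 and quantile normalized. A probe was kept if its mean level reached the median, an intensity of 37.5, which left 12089 probes and 6681 named genes. A gene took its kept probe with the highest level. Of 24267 probes, 13395 carry 1 symbol in the platform annotation and the rest are unnamed here. Symbols were updated through RefSeq (GRCh38.p14); 2 members came from older symbols, AIFM1 from PDCD8 and XIAP from BIRC4. With 1 array per group no test was run, and the number of arrays limits the precision. Every member is accounted for by name. The members, roles and lists were chosen with earlier results of these data known. The processing was tested on simulated data. Alternatives covered scaling, an offset, the filter and several probes of a gene. Tools were Python 3.11.15, pandas 2.3.3, scipy 1.17.1 and statsmodels 0.14.6.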

Additional observations from a re-analysis of the deposited data

How the results depend on the processing

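The values were recomputed under 7 other settings of scaling, offset, filter and probe choice. The 197 recomputed log2 ratios of single genes moved by no more than 0.43, the SD between probes of a gene, and none of the 7 genes at least 1.5-fold apart changed sign. Many of the 197 could not move. The filter settings leave the ratio of a kept gene as it was, and the mean over kept probes changes only the 2 members with 2 kept probes, BAX and BCL2L13. For the other genes only the scalings and the offset could move a ratio. Without the level filter the counts were 5 genes at least 1.5-fold higher (10.9%, beside 17.2% of all genes) and 10 lower (21.7%, beside 15.7%). The count at 2-fold or more was 1 as reported and 3 on the deposited scale and after dividing each array by its median, where DIABLO and BIRC5 joined CASP1. It was 3 without the filter, where CASP5 and BCL2L10 joined CASP1, and 0 with the filter at the 75th percentile, which removed CASP1 and BIRC5. The deposited scale places the median of all genes at -0.12 and that of the members at -0.14, with 10 members above 0 and 20 below. No paired analysis was possible because each group has 1 array. Intensities near the bottom of the scale limit CASP5, CASP8, CASP10, APAF1, BCL2, BCL2L1 and the decoy receptors.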
